A study of Mus musculus with 313 samples.

Results

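Id2, Nfil3, Ets1 and Tcf3 are transcription regulator genes that act at the start of the innate lymphoid cell (ILC) path, and they were taken by name as 4 of the 100 assays of a single-cell RT-PCR panel. The panel was run on 313 single cells sorted from pooled mouse fetal livers at embryonic day 15. All cells were Lin-, IL7Rα+ and α4β7+, that is, without lineage markers and with the IL-7 receptor and the gut-homing integrin. The cells fell into 3 groups by PLZF and CXCR5. The 14 lymphoid tissue inducer precursors (LTiP) were PLZF-negative and CXCR5-positive, the ILC precursors (ILCP) were PLZF-positive, and the α4β7+ lymphoid precursors (aLP) had neither mark. PLZF is the protein of Zbtb16. No genetic change or treatment other than the sort is given for any group in the sources used here. After a filter on poor cells, 14 LTiP cells of sort 3, 62 ILCP cells of sort 2, 90 ILCP cells of sort 3, 54 aLP cells of sort 2 and 92 aLP cells of sort 3 remained, so that each group was read as 1 or 2 pools of cells.

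Id2 encodes a helix-loop-helix protein without a DNA-binding region. It pairs with E proteins, keeps them off their E-box sites, and is required for the development of all ILC lineages. Tcf3 encodes the E proteins E12 and E47, which drive the B cell program and support early lymphoid progenitors. The table gives the symbol alone, which older work also used for the gene now named Tcf7l1, so the Tcf3 assay is taken here as that of the E protein gene by its present symbol. Nfil3 encodes a basic leucine zipper factor that acts early in ILC development and is known as an activator of Id2. Ets1 encodes a winged-helix factor of the ETS family, which is needed for natural killer cell and ILC development.

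The values are Ct values, the PCR cycle at which fluorescence crossed a threshold. A lower Ct stands for more cDNA, about 2 times as much for each cycle. A cell without a Ct was counted as not detecting the gene. A gene was counted as detected either with any Ct or, more strictly, with a Ct below 24, and its level in a cell was 24 minus the Ct, or 0 where no Ct below 24 was read. Sorts were read from the number in a cell's name, which the labels do not define. Cells of a pool were taken to share their sort and their fetal livers, so groups were compared over pools. The p-values measure only spread between pools, 2 a group, with each assay's variance drawn by limma toward that of all tested assays. In a pool's mean, fewer detecting cells and less RNA in each cannot be told apart, for which reason shares and Ct values are given separately.

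The pools differed in how much was read per cell. The mean number of assays with a Ct below 24 was 33.6 in LTiP cells, 40.7 and 40.8 in ILCP cells of sorts 2 and 3, and 32.2 and 28.2 in aLP cells of sorts 2 and 3. The mean Ct of the housekeeping gene Hprt was 17.7 in LTiP cells, 16.2 and 16.3 in ILCP cells, and 16.9 and 17.6 in aLP cells, with 1 stray value of 2.51 among the ILCP cells of sort 3. The aLP pool of sort 2 stood apart, since Tbp was detected in 0 of its 54 cells, which allows a share of up to 5.56%, against 51.1% of the aLP cells of sort 3. The gate gene Zbtb16 was detected in 50.0% of LTiP cells, in 93.5% and 96.7% of ILCP cells, and 20.4% and 3.3% of aLP cells, so some LTiP cells and some aLP cells of sort 2 held transcripts of the gene whose protein they were sorted to lack. Cxcr5 was detected in 85.7% of LTiP cells, in 38.7% and 45.6% of ILCP cells, and 25.9% and 7.61% of aLP cells. The last number in a cell's name, which the labels do not define, also differed between the pools. It was 1 to 96 in 14 of 14 LTiP cells, 52 of 62 and 19 of 90 ILCP cells, and 0 of 54 and 24 of 92 aLP cells. What this number stands for in the differences between groups cannot be told apart from the groups, above all in sort 2.

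Id2 was read late and at the edge of detection. Of all Id2 Ct values, 60.0% were 24 or higher, with a median of 24.86 and a range of 18.41 to 40.52. Among the 83 assays with a Ct in at least 20 cells it ranked second by this share, behind Il1r1 and ahead of Il2rb (20.1%). The other 3 genes were read well inside the limit: 1 Nfil3 value, 2 Ets1 values and 3 Tcf3 values over all 313 cells were 24 or higher. Whether Id2 was detected in a cell therefore depended on where the limit was set, while the shares of the other 3 differed between a limit of 24 and any Ct by at most 2 cells in a pool. At a limit of 22 the difference in share between ILCP and aLP cells was 4.68 points for Id2, 46.8 points for Ets1, -15.2 points for Nfil3 and 8.59 points for Tcf3.

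With any Ct, Id2 was read in 11 of 14 LTiP cells (78.6%), in 71.0% and 77.8% of ILCP cells of sorts 2 and 3, and in 64.8% and 59.8% of aLP cells. With a Ct below 24 it was read in 9 of 14 LTiP cells (64.3%), in 23 of 62 (37.1%) and 32 of 90 (35.6%) ILCP cells, and 11 of 54 (20.4%) and 11 of 92 (12%) aLP cells. Both ILCP pools lay above both aLP pools on either count, and the distance between the groups was wider under the stricter one. The difference in the share with any Ct was 12.1 ± 3.922 percentage points (ILCP minus aLP, estimate ± SE, n = 2 pools each, limma adjusted p = 0.208). In the share below 24 it was 20.2 ± 4.03 points (adjusted p = 0.0703 in limma), with 16.7 points in sort 2 and 23.6 points in sort 3. Neither difference passed the threshold of 0.05. Among cells with 30 to 40 detected assays, a restriction chosen after the data had been seen, Id2 was read in 66.7% of LTiP cells, 22.7% and 28.6% of ILCP cells, and 25.8% and 13.2% of aLP cells. The groups of ILCP and aLP pools then overlapped, with a difference of 6.17 points (adjusted p = 0.624 in limma).

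Among cells with any Id2 Ct, the Ct was earlier in ILCP cells. The median Id2 Ct was 23.28 in LTiP cells, 23.97 and 24.47 in ILCP cells, and 27.18 and 26.05 in aLP cells. The pool means averaged 25.14 ± 0.20 cycles in ILCP cells and 27.08 ± 0.37 cycles in aLP cells (SD, n = 2 pools each). The difference of -1.94 ± 0.43 cycles (SE) passed the test (limma adjusted p = 0.0347), with -1.53 cycles in sort 2 and -2.34 in sort 3. It was the largest by size of the 56 assays that could be tested on Ct. Very late values weigh in these means. The Id2 Ct had an SD of 3.8 and 2.6 cycles in the ILCP pools and 4.3 and 4.5 in the aLP pools. Its highest value, 40.52 in aLP cells of sort 3, lay past the 40 cycles run. Whether such late values stand for Id2 cDNA was not tested. With pool medians in place of means the difference was -2.40 cycles (limma adjusted p = 0.0391). Of these 56 assays, 4 were called (7.14%): Id2, Ets1, Tcf7 and H19, all with the earlier Ct in ILCP cells. The pools of the groups did not overlap for 33 of the 56 (58.9%), Id2 and Ets1 among them. The Id2 call was lost without the ILCP pool of sort 2 (-2.08 cycles) and without that of sort 3 (-1.79 cycles). It was kept without the aLP pool of sort 2 (-2.20 cycles) or of sort 3 (-1.67 cycles). With 1 pool left in a group, the spread comes from the other group alone, and limma draws it toward the spread of all tested assays. The Id2 call was also lost when each cell was scaled to its Actb, Gapdh and Hprt values (-1.61 cycles, adjusted p = 0.528 in limma). In cells with 30 to 40 detected assays it was lost too (-1.08 cycles, adjusted p = 0.386 in limma).

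A limit of 24 cut through the Id2 values, and it cut off a larger part of them in aLP than in ILCP cells. Of the cells with an Id2 Ct, 18.2% in LTiP, 47.7% and 54.3% in ILCP, and 68.6% and 80% in aLP had one at 24 or later. Very late values of 28 or more were read in 14.3% of LTiP cells, 19.4% and 14.4% of ILCP cells, and 25.9% and 16.3% of aLP cells. The cells between 22 and 24 cycles numbered 8 of 14 in LTiP, 14 of 62 and 29 of 90 in ILCP, and 7 of 54 and 10 of 92 in aLP. When only values below 24 were averaged, the pool means were 23.05 cycles in LTiP cells, 22.46 and 22.79 in ILCP cells, and 22.14 and 23.07 in aLP cells. The difference between ILCP and aLP was then 0.02 cycles (adjusted p = 0.995 in limma). Such a cut leaves a narrow range and 11 cells in each aLP pool, so the means must lie close together. The value cannot show where the Ct difference lies. Since most Id2 values below 24 lay between 22 and 24, the mean Id2 level was low in every pool: 0.61 cycles in LTiP cells, 0.57 and 0.43 in ILCP cells, and 0.38 and 0.11 in aLP cells. On that scale ILCP cells exceeded aLP cells by 0.25 ± 0.33 cycles (SE, limma adjusted p = 0.598).

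**Figure D1:**
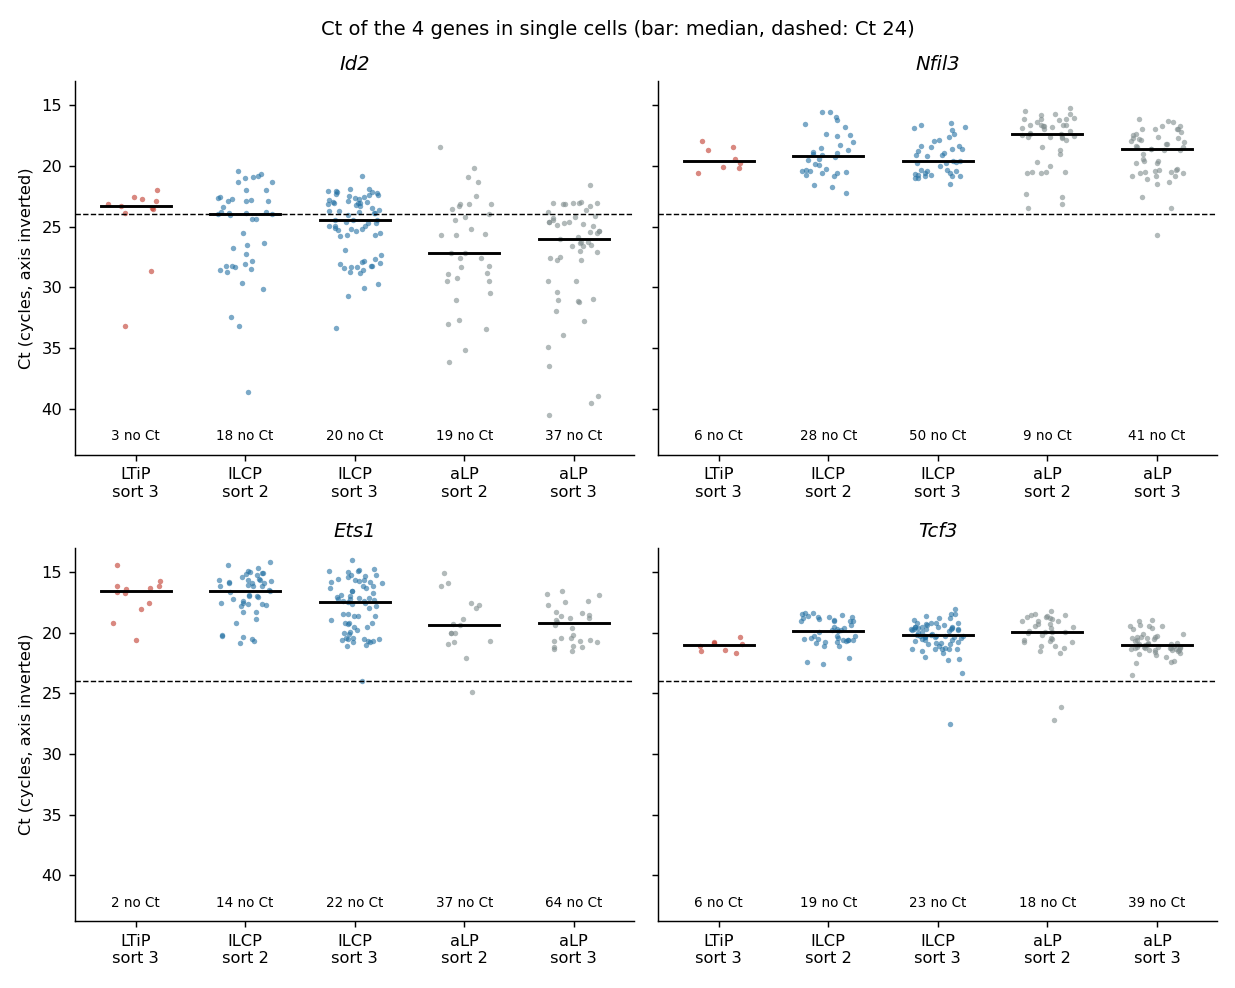
Ct values of Id2, Nfil3, Ets1 and Tcf3 in single cells by group and sort, on an inverted axis in cycles so that more cDNA is higher. Each point is 1 cell with a Ct, the bar is the median, the dashed line marks a Ct of 24, and the number of cells without a Ct stands at the bottom. Most Id2 values lie near or beyond the line, while nearly all of those of the other 3 genes lie above it on the inverted axis.

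Ets1 was read in more of the ILCP cells than of the aLP cells, and earlier in the cells that held it. It was detected below a Ct of 24 in 12 of 14 LTiP cells (85.7%), in 48 of 62 (77.4%) and 68 of 90 (75.6%) ILCP cells, and 16 of 54 (29.6%) and 28 of 92 (30.4%) aLP cells. Pools of 1 group were within 2 points of each other, and the group means were 76.5% ± 1.32 in ILCP cells and 30.03% ± 0.569 in aLP cells (SD, n = 2 pools each). The difference was 46.5 ± 2.1 points (SE, limma adjusted p = 0.017), and counting any Ct it was 45.5 ± 1.89 points (limma adjusted p = 0.0173). These SEs depend on the assays fitted together. Without the assays that had equal shares in both pools of each group, they were 5.5 and 5.7 points, with both calls kept. Detecting cells also held more: the median Ct was 16.53 in LTiP cells, 16.53 and 17.43 in ILCP cells, and 19.39 and 19.22 in aLP cells. The mean Ct differed by -1.92 ± 0.46 cycles (limma adjusted p = 0.0347), with -2.36 in sort 2 and -1.48 in sort 3. The level, which holds both, was 5.99 cycles in LTiP cells, 5.50 and 4.64 in ILCP cells, and 1.51 and 1.42 in aLP cells. It rose in ILCP cells by 3.60 ± 0.42 cycles (SE, limma adjusted p = 0.00888), the fourth largest difference of 85 assays.

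The background of these calls was as follows. On the level, 8 of 85 tested assays were called (9.41%), 6 higher and 2 lower in ILCP cells, and Ets1 was the 1 of the 4 genes among them. On the share below 24, 13 of 85 were called (15.3%), and on the share with any Ct 9 of 86 (10.5%), again with Ets1 as the 1 of the 4. The median difference over all tested assays was 0.59 cycles in level and 10.4 points in share, so most assays read higher in ILCP cells. Pools that did not overlap between groups were common, with 57 of 85 assays (67.1%) on the level, 53 of 85 (62.4%) on the share below 24 and 54 of 86 (62.8%) on the share with any Ct. All 4 genes were among those on the level and on the share with any Ct, and Ets1, Id2 and Tcf3 on the share below 24.

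Leaving out a pool ended several Ets1 calls. The level call was lost without the ILCP pool of sort 2 (adjusted p = 0.104) and without that of sort 3 (adjusted p = 0.115 in limma) and kept without either aLP pool, where the spread comes from the ILCP pools alone, while the share call was lost without any 1 of the 4 pools (adjusted p of 0.0688 to 0.144). The difference in share itself stayed between 45.5 and 47.4 points in those fits. The Ct call was lost without the ILCP pool of sort 2 (-1.44 cycles, adjusted p = 0.9), without that of sort 3 (-2.40 cycles, adjusted p = 0.259) and after scaling to Actb, Gapdh and Hprt (-1.16 cycles, adjusted p = 0.64 in limma). Among cells with 30 to 40 detected assays, the Ets1 shares were 88.9% of 9 LTiP cells, 72.7% of 22 and 69.05% of 42 ILCP cells, and 32.3% of 31 and 55.3% of 38 aLP cells. The difference between ILCP and aLP in these cells was 27.1 points (adjusted p = 0.199 in limma), the level difference was 2.27 cycles (adjusted p = 0.135) and the Ct difference -1.11 cycles (adjusted p = 0.386), so that none of the 3 passed.

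**Figure D2:**
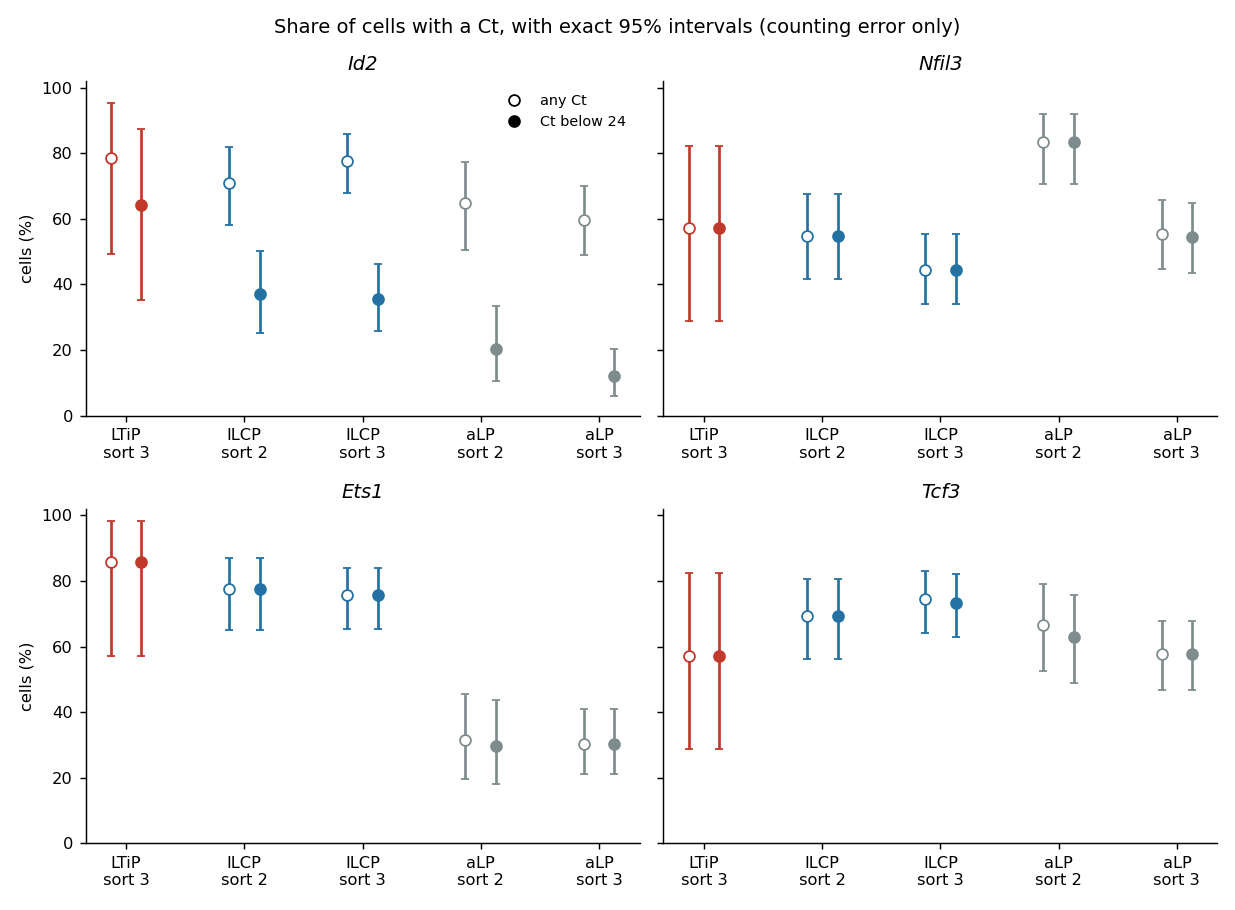
Percent of cells with any Ct (open) and with a Ct below 24 (filled) for the 4 genes by group and sort, with exact Clopper-Pearson 95% intervals that cover counting error only. The open and filled points part for Id2 in each pool, and the Ets1 shares of LTiP and ILCP cells lie above those of aLP cells.

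Nfil3 was the gene with the opposite sign. It was detected below a Ct of 24 in 8 of 14 LTiP cells (57.1%), in 34 of 62 (54.8%) and 40 of 90 (44.4%) ILCP cells, and 45 of 54 (83.3%) and 50 of 92 (54.3%) aLP cells. The aLP pool of sort 2 was high, while the aLP pool of sort 3 lay just under the ILCP pool of sort 2, so the groups overlapped. The difference of -19.2 ± 12.8 points (ILCP minus aLP, SE) did not pass the test (limma adjusted p = 0.393), and it was -28.5 points in sort 2 and -9.90 points in sort 3. The median Nfil3 Ct was 19.61 in LTiP cells, 19.18 and 19.59 in ILCP cells, and 17.35 and 18.64 in aLP cells. The level was 2.64 cycles in LTiP cells, 2.73 and 2.098 in ILCP cells, and 5.04 and 2.76 in aLP cells, a difference between ILCP and aLP of -1.48 ± 0.82 cycles (SE, limma adjusted p = 0.277). The size rested on the aLP pool of sort 2, the one that stood apart. Without it the level difference was -0.34 cycles and the share difference -4.71 points. Without the aLP pool of sort 3 the level difference was -2.62 cycles and the share difference -33.7 points. In cells numbered 97 or higher, the Nfil3 level difference was -1.24 cycles (limma adjusted p = 0.494) and the share difference -7.78 points (limma adjusted p = 0.873).

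The Nfil3 difference was wider in a middle range of yield. Among cells with 30 to 40 detected assays, Nfil3 was read in 55.6% of LTiP cells, in 45.5% and 42.9% of ILCP cells, and 90.3% and 76.3% of aLP cells, and the groups of ILCP and aLP pools no longer overlapped. The difference was -39.2 points (limma adjusted p = 0.0609) with a Ct below 24. With any Ct it was -40.5 points and passed (limma adjusted p = 0.043), as 1 of 10 assays called of 86 in these cells. Neither the level difference of -3.245 cycles (limma adjusted p = 0.0888) nor the Ct difference of 1.71 cycles (limma adjusted p = 0.0501) passed. This restriction left 9 LTiP cells, 22 and 42 ILCP cells, and 31 and 38 aLP cells. It matched the range of yield and not its median, which was 35 assays in LTiP cells, 38.5 and 37 in ILCP cells, and 37 and 33 in aLP cells.

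Tcf3 was the most evenly read of the 4. It was detected below a Ct of 24 in 8 of 14 LTiP cells (57.1%), in 43 of 62 (69.4%) and 66 of 90 (73.3%) ILCP cells, and 34 of 54 (62.96%) and 53 of 92 (57.6%) aLP cells. The median Ct was 21.03 in LTiP cells, 19.86 and 20.21 in ILCP cells, and 19.92 and 21.05 in aLP cells. Both ILCP pools lay above both aLP pools in share, by 11.1 ± 3.38 points (SE, limma adjusted p = 0.161), close to the median difference over all assays. The level was 1.66 cycles in LTiP cells, 2.83 and 2.79 in ILCP cells, and 2.66 and 1.78 in aLP cells, a difference between ILCP and aLP of 0.59 ± 0.42 cycles (SE, limma adjusted p = 0.408). In cells with 30 to 40 detected assays the sign turned, with 66.7% of LTiP cells, 59.1% and 66.7% of ILCP cells, and 74.2% and 73.7% of aLP cells (ILCP minus aLP -11.1 points, adjusted p = 0.195 in limma). The limit of this restriction given for Nfil3 holds for Tcf3 too. In cells with at least 20 detected assays the Tcf3 difference in share was 3.574 points (adjusted p = 0.73 in limma).

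**Figure D3:**
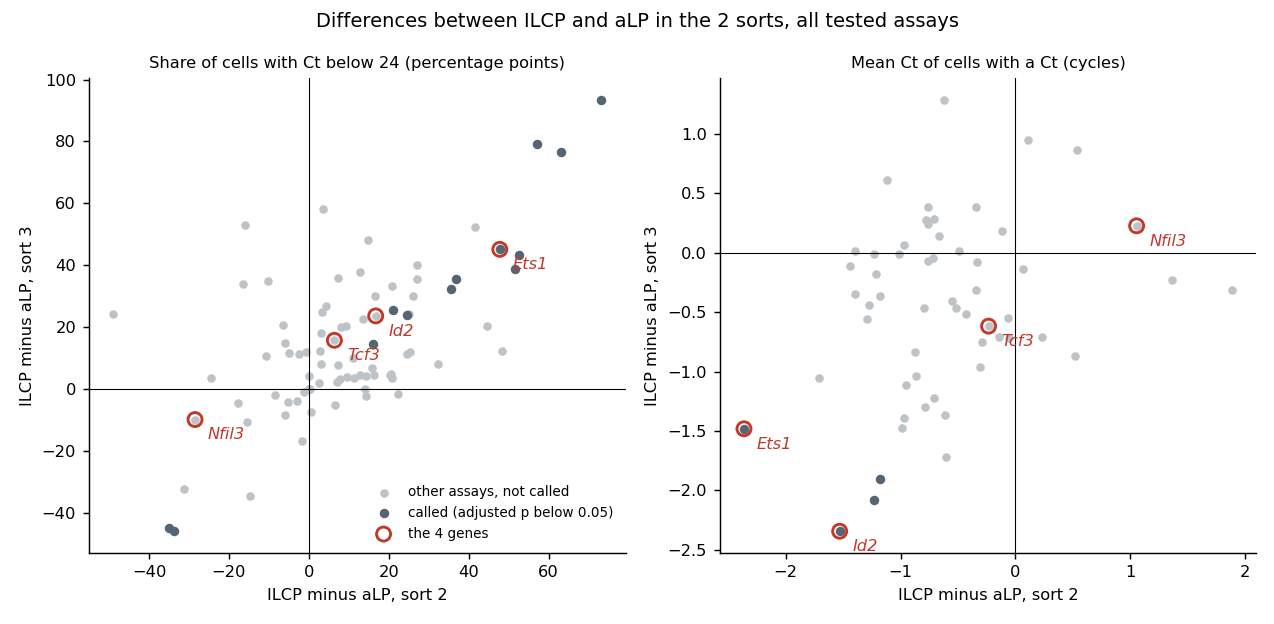
ILCP minus aLP differences of all tested assays in sort 2 (x axis) against sort 3 (y axis), for the share of cells with a Ct below 24 in percentage points (left) and the mean Ct of cells with a Ct in cycles (right). Dark points passed limma at an adjusted p below 0.05 and rings mark the 4 genes. Ets1 lies far out on both plots, Id2 lies far out on the Ct plot, and Nfil3 is the ring on the lower left of the share plot.

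Id2 and its partner Tcf3 were next set against each other within single cells. With Ct values below 24, both were read in 5 of 14 LTiP cells, in 18 of 62 and 23 of 90 of the ILCP cells, and 7 of 54 and 5 of 92 of the aLP cells. Id2 alone was read in 4 LTiP cells, in 5 and 9 of the ILCP cells, and 4 and 6 of the aLP cells. Tcf3 alone was read in 3 LTiP cells, in 25 and 43 of the ILCP cells, and 27 and 48 of the aLP cells. Tcf3 without Id2 was thus the most frequent state in both ILCP pools and both aLP pools, and Id2 without Tcf3 was the least frequent in those pools except aLP sort 3, where 5 cells had both and 6 had Id2 alone.

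Cells with and without Id2 were then compared for their share with Tcf3. Tcf3 was read in 55.6% of the LTiP cells with Id2, against 60.0% of those without. In ILCP cells it was read in 78.3% with Id2, against 64.1% without, in sort 2, and in 71.9% with Id2, against 74.1% without, in sort 3. In aLP cells it was read in 63.6% with Id2, against 62.8% without, in sort 2, and in 45.5% with Id2, against 59.3% without, in sort 3. The share was higher with Id2 in 2 of the 5 pools, with differences of -13.8 to 14.2 points. The exact intervals of the shares overlapped in all 5 pools, which does not show that the shares were alike.

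With any Ct, the Tcf3 share was higher with Id2 in 3 of the 5 pools. It was 54.5% with Id2, against 66.7% without, in LTiP cells. In ILCP cells it was 77.3% with Id2, against 50.0% without, in sort 2, and 75.7% with Id2, against 70% without, in sort 3. In aLP cells it was 71.4% with Id2, against 57.9% without, in sort 2, and 52.7% with Id2, against 64.9% without, in sort 3. The intervals again overlapped in all 5 pools. Both genes were then read in 6 of 14 LTiP cells, in 34 of 62 and 53 of 90 of the ILCP cells, and 25 of 54 and 29 of 92 of the aLP cells, which made this the most frequent state in each pool. In those cells the median of the Id2 Ct minus the Tcf3 Ct was 2.31 cycles in LTiP cells, 4.70 and 4.03 in ILCP cells, and 6.68 and 4.92 in aLP cells. Id2 was thus read later than Tcf3 in all of them but 1 ILCP cell of sort 2. These are differences between assays whose efficiencies are not given in the sources used here, so their order over pools can be read, and their size cannot be read as a ratio of transcripts. Across the cells with both, the Pearson correlation of the 2 Ct values was -0.13 in LTiP cells (n = 6), -0.17 and -0.18 in ILCP cells (n = 34 and 53), and 0.17 and 0.20 in aLP cells (n = 25 and 29). Both values of a cell share its cDNA yield, and correlations this weak are given as description only.

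**Figure D4:**
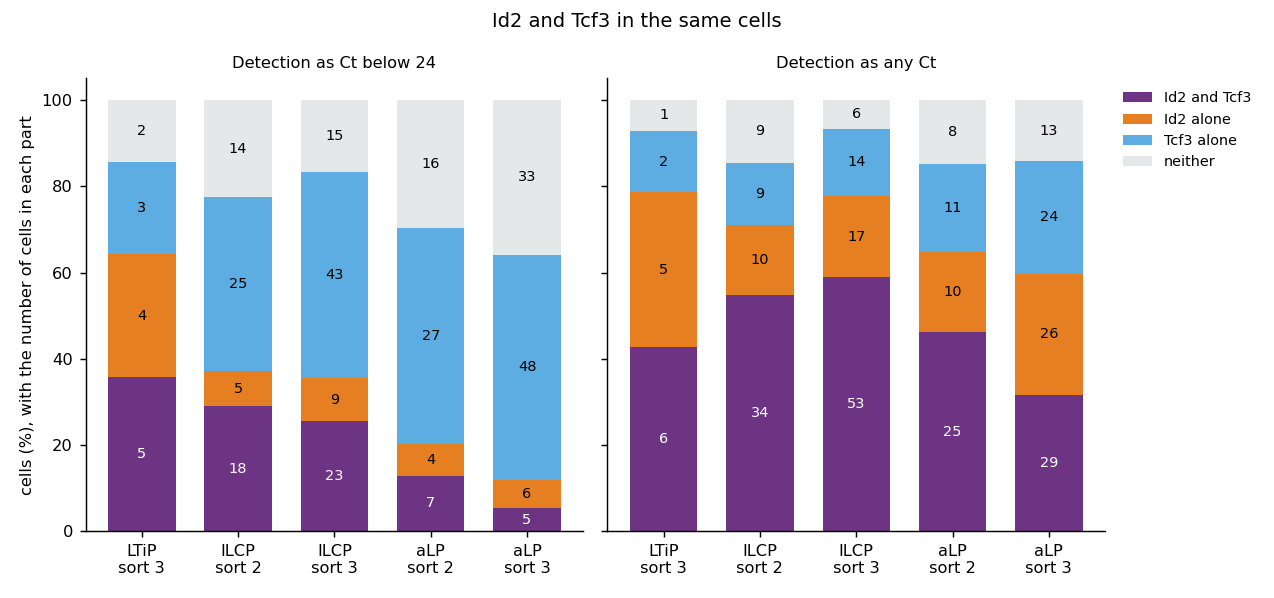
Percent of cells in each group and sort with Id2 and Tcf3, Id2 alone, Tcf3 alone or neither, counting a Ct below 24 (left) and any Ct (right), with the number of cells written in each part of a bar. Tcf3 alone is the largest part of the ILCP and aLP bars on the left, and both genes together are the largest part of each bar on the right.

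Among the other 5 pairs of the 4 genes, Nfil3 with Ets1 had the widest differences of 1 sign in ILCP cells. With Ct values below 24, Nfil3 was read in 47.9% of the 48 ILCP cells of sort 2 with Ets1 (33.3 to 62.8), against 78.6% of the 14 without (49.2 to 95.3). In ILCP cells of sort 3 it was read in 38.2% of the 68 with Ets1 (26.7 to 50.8), against 63.6% of the 22 without (40.7 to 82.8). The difference was thus -30.6 and -25.4 points in the ILCP pools, 8.33 points in LTiP cells, and -11.8 and 9.15 points in the aLP pools. For each of these pairs the exact intervals overlapped in 5 of 5 pools, which does not show that the shares were alike, and cells of 1 pool allow no test over replicates. Ets1 was less often read in cells with Tcf3 in 4 of the 5 pools, with differences of -25.0 to 3.87 points. Nfil3 was more often read in cells with Id2 in 3 of the 5 pools, with differences of -35.6 to 9.59 points. With any Ct, 1 pool was an exception: in aLP cells of sort 2, Nfil3 was read in 97.1% of the 35 cells with Id2 (85.1 to 99.9) and in 57.9% of the 19 without (33.5 to 79.8). The aLP pool of sort 3 did not show it, with 56.4% of the cells with Id2 and 54.1% of those without. The mean number of the 4 genes read in a cell was 2.64 in LTiP cells, 2.39 and 2.29 in ILCP cells, and 1.96 and 1.54 in aLP cells. Cells with none of the 4 numbered 1 in ILCP of sort 3, 2 in aLP of sort 2 and 12 in aLP of sort 3.

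LTiP cells formed 1 pool of 14 cells, so their values are set beside those of sort 3 without a test, with exact Clopper-Pearson 95% intervals for counting error. The Id2 share below 24 was 64.3% in LTiP cells (35.1 to 87.2), against 35.6% in ILCP cells (25.7 to 46.4) and 12% in aLP cells (6.12 to 20.4). The LTiP interval lay clear of that of aLP cells and overlapped that of ILCP cells. With any Ct the distance closed, with Id2 in 78.6% of the LTiP cells (49.2 to 95.3), against 77.8% of ILCP cells (67.8 to 85.9) and 59.8% of aLP cells (49 to 69.9). The Ets1 share was 85.7% in LTiP cells (57.2 to 98.2), against 75.6% in ILCP cells (65.4 to 84) and 30.4% in aLP cells (21.3 to 40.9), again clear of aLP cells alone. Tcf3 was read in 57.1% of the LTiP cells (28.9 to 82.3), against 73.3% of ILCP cells (63 to 82.1) and 57.6% of aLP cells (46.9 to 67.9). Nfil3 was read in 57.1% of the LTiP cells (28.9 to 82.3), against 44.4% of ILCP cells (34 to 55.3) and 54.3% of aLP cells (43.6 to 64.8). The LTiP interval overlapped both others for Nfil3 and for Tcf3.

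Of a list of 13 ILC precursor factors, which holds Id2, Nfil3 and Ets1, 12 were on the panel and 11 were tested on the level. Of these, 4 rose in ILCP cells, beside 9.41% of all tested assays called, and none was called lower, with a median difference of 1.72 cycles beside 0.59 cycles over all tested assays. Ets1 was 1 of the 4, and the others were the PLZF gene Zbtb16, on which ILCP cells were sorted (7.10 cycles, adjusted p = 0.00223), the T cell and ILC factor gene Tcf7 (5.62 cycles, adjusted p = 0.00631) and the nuclear receptor gene Rora (4.83 cycles, adjusted p = 0.00259, limma). Of 6 genes listed as acting with Nfil3, 5 were tested, and the 2 that rose, Zbtb16 and Tcf7, are also on the first list. Of the E and Id protein genes, Id2 and Tcf3 were the 2 of 6 listed that the panel held, and neither was called on the level. Among 7 tested lymphoid progenitor genes, the Notch target gene Hes1 rose by 2.27 cycles (limma adjusted p = 0.0446) and none fell. The 3 tested IL-7 and IL-15 receptor genes held none that was called on the level, and Il2rb was called on the share below 24 (24.2 points, limma adjusted p = 0.0223).

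Markers of other cell types were read beside these values. The B lineage list had 4 assays on the panel, with a summed level of 3.2 cycles in LTiP cells, 2.38 and 1.87 in ILCP cells, and 5.28 and 5.65 in aLP cells. Its defining genes Pax5 and Ebf1 were each read in at most 1.09% of the cells of any pool, and the sum came from Bcl11a and from Irf8, which fell by 2.88 cycles in ILCP cells (limma adjusted p = 0.0109). The T lineage list (Lat, Cd4 and Bcl11b) summed to 5.61 cycles in LTiP cells, 4.08 and 3.06 in ILCP cells, and 0.98 and 0.27 in aLP cells, with none of the 3 called on the level. Bcl11b was called on the share below 24 (33.9 points, limma adjusted p = 0.017) and on the share with any Ct. It was read in 0% of LTiP cells, where the sum came from Lat (3.05 cycles) and Cd4 (2.56 cycles). The myeloid list held Irf8 and Pira11 and summed to 3.47 cycles in LTiP cells, 2.21 and 1.95 in ILCP cells, and 5.32 and 7.04 in aLP cells. The erythroid, megakaryocyte and mast list held Itga2b alone. It was read below a Ct of 24 in 0% of LTiP cells, in 22.6% and 34.4% of ILCP cells, and 1.85% and 1.09% of aLP cells. Its level difference between ILCP and aLP of 1.44 cycles was not called (limma adjusted p = 0.077). The part of these lists in the values of Id2, Tcf3, Ets1 and Nfil3 was not tested.

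The shares of the 4 genes were then read by the yield of a cell, taken as the number of other assays with a Ct below 24. Ets1 was read more often in cells at or above their pool's median yield in 5 of 5 pools, by 8.86 to 33.5 points, and Tcf3 in 5 of 5, by 1.5 to 38.3 points. Id2 was higher in 4 of 5, with differences of -3.22 to 17.9 points. Nfil3 was higher with yield in the 2 aLP pools, by 18.5 and 30.4 points, and not in the 2 ILCP pools, with differences of -3.54 and -3.02 points. In aLP cells of sort 3, Ets1 was read in 46.8% of cells at or above the median and in 13.3% of those under it. Yield thus moved with the groups and, in each pool, with Ets1. For Tcf3 this held in each pool only for the split at the median. LTiP cells with Tcf3 had a mean of 32.4 other assays, against 33.8 in those without. In cells with at least 20 assays the Ets1 difference in share was 43.9 points (limma adjusted p = 0.0221), and with cells scaled to Actb, Gapdh and Hprt its level difference was 3.2 cycles (limma adjusted p = 0.015). The part of yield in the differences between ILCP and aLP cells was not tested, apart from the values given for cells with 30 to 40 or at least 20 assays and for scaled cells.

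**Figure D5:**
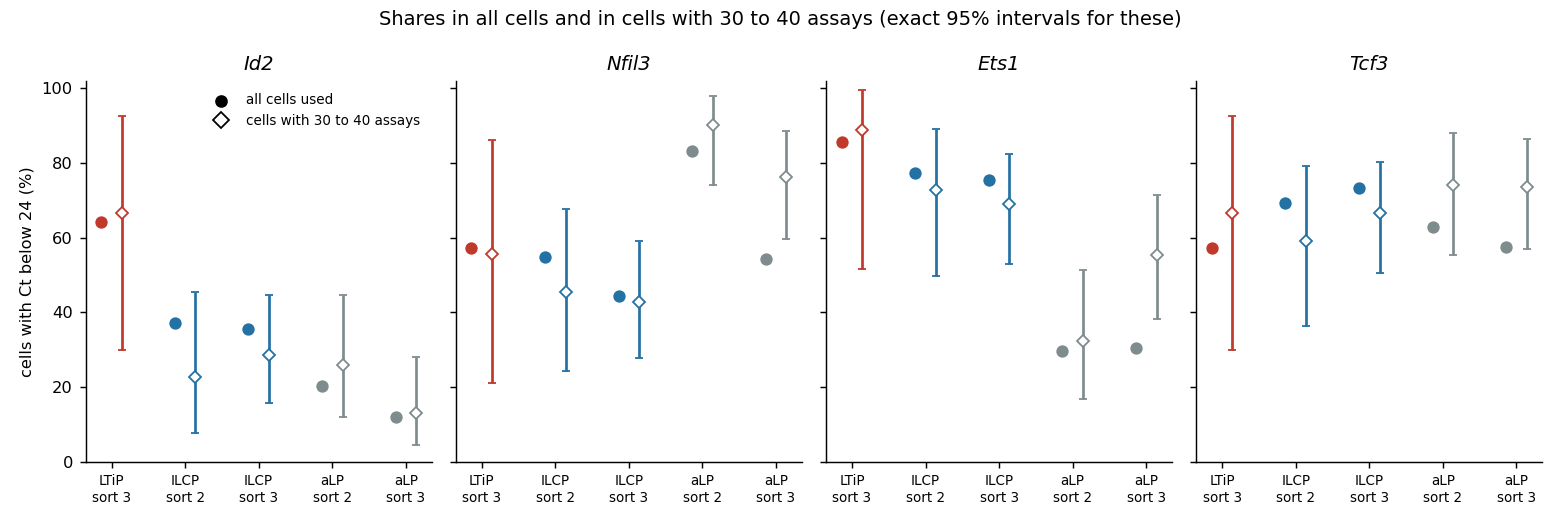
Percent of cells with a Ct below 24 for the 4 genes by group and sort, in all cells used (filled circles) and in cells with 30 to 40 detected assays (open diamonds, with exact Clopper-Pearson 95% intervals). Among the diamonds, aLP lies above ILCP for Nfil3 and Tcf3 and below it for Ets1, and the groups overlap for Id2.

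Within each pool, cells with Ets1 also held more of 9 other ILC precursor factors. Their mean number was 4.92 in LTiP cells with Ets1, against 1.5 in those without, of which there were 2. It was 6.60 against 4.86 and 6.47 against 5.18 in ILCP cells with and without Ets1 of sorts 2 and 3, and 4 against 3.2 and 3.04 against 2.109 in aLP cells. The remaining 90 assays moved the same way, with 34.2 against 32.1 and 34.5 against 32.1 detected in ILCP cells with and without Ets1. For Id2 the 9 factors were higher in cells with it in sort 2, with 6.61 against 5.97 in ILCP cells and 4.09 against 3.30 in aLP cells. In sort 3 they were level in ILCP cells (6.16 against 6.16). They were lower in aLP cells (2.27 against 2.41) and in LTiP cells (4.33 against 4.6) of sort 3.

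By the mean absolute difference of their shares over the 5 pools, the assays most like Id2 were Lat (4.48 points), Il2rb (6.26 points) and Il18r1 (8.11 points). Lat was read in 64.3% of LTiP cells, in 41.9% and 37.8% of ILCP cells, and 14.8% and 2.174% of aLP cells. The 3 most like Ets1 were Tcf7 (9.46 points), Ahr (13 points) and Rora (14.95 points). The 3 most like Nfil3 were Nfatc1 (10.1 points), Irf8 (11.98 points) and Tcf3 (13.4 points). For Tcf3 the 3 closest were Trp53 (6.73 points), Nfatc1 (9.06 points) and Tle4 (10.2 points). These are likenesses over 5 values, 4 of which come from the groups already compared.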

How the data were processed

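The deposited values, entered here as scores, are raw Ct values without normalization, per the file headers. Per the labels' protocols, cDNA of single cells was preamplified for 22 cycles and read over 40 cycles on a Biomark HD chip with reagents of the TaqMan or the Solaris kind, although their label entry reads SYBR Green. The sources used here do not give what made a Ct missing or how Ct values were called. The deposited table held 313 cells and 100 assays with 11450 Ct values, of which 447 (3.90%) were 24 or higher. No 2 cells were identical. The number 2 or 3 in a cell's name was read as its sort, which the labels do not define.

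A cell was kept if 5 or more assays, among them 1 or more of Tbp, Hprt, Gapdh and Actb, had a Ct below 24, which left out 1 aLP cell of sort 2. Pool values of ILCP and aLP (mean level, percent of cells below 24 or with any Ct, mean Ct) were compared with limma 3.58.1 in R 4.3.3 (lmFit and eBayes, group as the only term, two-sided, Benjamini-Hochberg over all tested assays, threshold 0.05). Assays were tested when 10% or more of the cells detected them in 1 of the 4 pools, and for Ct when 5 or more cells of each pool had one. Shares carry exact Clopper-Pearson intervals at 95% for counting error only. Tables and figures were made with Python 3.11.15, pandas 2.3.3, scipy 1.17.1 and matplotlib 3.10.9.

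The 4 genes, the gene lists and the limit of 24 were chosen with earlier results of these data known. Named genes were the 4, the assays nearest to each in share over the pools (3 each), list members called on the level, and housekeeping and gate genes. H19, Il1r1, Pax5, Ebf1, Bcl11a, Lat, Cd4, Bcl11b, Pira11 and Itga2b were named after their values were seen. Assay sequences were not used here. Alternatives varied the limit, scaling, filters, averaging, pools, the block and the cell numbers. The restriction to 30 to 40 assays per cell, and leaving out assays without spread between pools, were chosen after seeing the data.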

Additional observations from a re-analysis of the deposited data

How the results depend on the processing

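The 4 pools and 14 LTiP cells limit precision, and Id2 is limited by its late Ct values. Of the 4 sorted pools, the same-numbered ones did not deviate together (correlation of -0.046), so the numbers were not taken to pair them. With a replicate block for the sort, limma called 8 assays on the level, 5 on Ct, 0 on the share below 24 (23 at an unadjusted p under 0.05) and 0 on the share with any Ct (21 at an unadjusted p under 0.05). Ets1 then had an adjusted p of 0.012 on the level, 0.0831 and 0.0847 on the shares, and 0.0018 on Ct, as Id2 did on Ct.

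Counts of called assays on the level (8) became 14, 13 and 17 at limits of 26, 28 and 41, and 16 when cells were averaged on the linear scale. Leaving out 1 pool gave 0 to 19 (16 to 28 at an unadjusted p under 0.05 in limma). On the share below 24 (13) the count was 8 in cells with 30 to 40 assays, 4 in cells numbered 97 or higher, and 0 without any 1 pool (19 to 29 unadjusted in limma). On the share with any Ct (9) it was 26 on log odds, 4 in cells numbered 97 or higher, and 0 without any 1 pool (18 to 26 unadjusted in limma).

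Without the assays that had equal shares in both pools of each group, 17 and 13 of 82 were called on the shares. The SE of the difference in share below 24 was then 6.08 points for Id2, 5.5 for Ets1, 5.86 for Tcf3 and 10.9 for Nfil3. With these assays it was 4.03, 2.1, 3.38 and 12.8 points. On Ct (4) limma called 0 assays after scaling to Actb, Gapdh and Hprt (4 unadjusted), 0 after scaling to the cell's median (8), 0 in the fit of 5 pools (12), 0 with values below 24 only (10), 0 with at least 3 cells (13), 1 in cells with 30 to 40 assays, and 0 to 12 without 1 pool (3 to 18 unadjusted). Scaling to the housekeeping genes moved the median Ct difference of all assays to 0.08 cycles, against -0.48 unscaled, and the median level difference to 0.42 cycles, against 0.59. Cells with 30 to 40 assays had a median level difference of -0.05 cycles and a median share difference of 0.12 points. In them the sign turned for Tcf3 on the level (-0.39 cycles), the share below 24 (-11.1 points), the share with any Ct (-9.87 points) and Ct (0.072 cycles), and for Id2 on the share with any Ct (-1.32 points). The Id2 level turned to -0.00060 cycles at a limit of 22, and the Id2 Ct to 0.024 cycles with values below 24 only.

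The Id2 distance of LTiP cells shrank to 3.8 points over ILCP cells and 6.06 points over aLP cells at a limit of 22. With at least 20 assays per cell, Tcf3 was more often read with Id2 in 1 of 5 pools, against 2 in all cells. Ets1 kept a positive level difference in all 19 alternatives and stayed called in 16. On Ct, the Id2 and Ets1 calls each held in 5 of 13 alternatives, and the Ets1 share calls in 9 of 15 and 6 of 12. Nfil3 kept a negative level difference in all 19 and passed in 1. The causes of these changes were not tested.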
